A study of Mus musculus with 4 samples.

Results

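The subject here is a set of 8 genes for channel proteins of glia and blood vessels: the connexins Gja1, Gjb6, Gjb2, Gjc3, Gjb1, Gja4 and Gjc1, and the pannexin Panx1. They were looked up by gene symbol, and all 8 were found among the 23475 genes listed in the deposited tables. All 8 also passed the filter on low counts that left 17696 genes for testing. The samples were 4 RNA-seq libraries of cortical astrocytes that had been isolated at postnatal day 5. The 2 libraries labelled WT came from PD1fl/fl mice, which carry a floxed PD-1 gene, and the 2 labelled KO came from PD1cKO-Cx3 mice, in which PD-1 was conditionally deleted. The sources used here do not say what Cx3 stands for or which cells lost the gene. Nothing in the labels says whether the libraries of a group came from separate animals, so p-values here reflect only how these libraries vary.

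Connexins are membrane proteins that assemble into ring-shaped hemichannels, and hemichannels of adjoining cells dock to form gap junctions that pass ions and small metabolites. Astrocytes are coupled into large networks mainly by Cx43 (gene Gja1) and, as they mature, Cx30 (Gjb6), while oligodendrocytes use other connexins to couple to each other and to astrocytes. Endothelial and mural cells of vessels use a further set, and pannexins form single-membrane channels that release ATP and do not usually dock between cells. In the 4 libraries the astrocyte connexin Gja1 was by far the most abundant member per length and had a mean of 566 CPM in the KO-labelled libraries and 603 CPM in WT (CPM, counts scaled to the effective library size). The oligodendrocyte connexins Gjc3 and Gjb1 and the vascular connexin Gja4 were measured higher in both KO-labelled libraries than in both WT libraries. The same held for 21.2% of all tested genes, and 18.4% were lower in both. None of the 8 members passed the test over all genes, which 0.017% of tested genes did.

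Gja1 lies on chromosome 10 (chr10:56377330-56402513, plus strand), and Gjb6 (chr14:57123303-57133611) and Gjb2 (chr14:57098600-57104702) are neighbours on the minus strand of chromosome 14. Gjc3 lies on chromosome 5 (chr5:137953461-137963098, minus strand) and Gjb1 on the X chromosome (chrX:101376378-101385629, plus strand). Gja4 lies on chromosome 4 (chr4:127311421-127314039), Gjc1 on chromosome 11 (chr11:102799579-102819700) and Panx1 on chromosome 9 (chr9:15002128-15045478), all on the minus strand. These coordinates are on GRCm38 and are identical in the files and in the GENCODE M21 annotation. No other annotated gene overlaps any of the 8, so reads of a neighbour or of an antisense gene could not enter their counts through an overlap. The coding sequences were searched against the GENCODE M21 transcripts, and the longest matches of each member were kept. Gja1 matched Gja6 at 77.4% over 716 bases, and Gjb6 matched Gjb2 at 76.2% over 676 bases. No kept match exceeded 78.2% identity, so no near-identical copy of a whole coding sequence was found. Shorter matches were not examined, and the untranslated parts were not searched.

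What the connexins share is a fixed spacing of cysteines in the first extracellular loop, where hemichannels dock. The coding sequences of the 7 connexin members were searched in frame for a cysteine codon (TGC or TGT), 6 codons of any kind, a second cysteine codon, 3 codons of any kind and another cysteine codon. Each held exactly 1 such stretch of 36 bases, and Panx1 held 0. The stretches are shown because they set the connexins apart from the pannexin, with the cysteine codons in capitals and the codons between them in lower case, read from GENCODE M21 transcripts.
Gja1: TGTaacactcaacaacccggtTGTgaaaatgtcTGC
Gjb6: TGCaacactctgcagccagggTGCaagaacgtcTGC
Gjb2: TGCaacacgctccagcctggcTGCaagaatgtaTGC
Gjc3: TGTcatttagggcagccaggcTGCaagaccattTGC
Gjb1: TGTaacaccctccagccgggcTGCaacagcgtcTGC
Gja4: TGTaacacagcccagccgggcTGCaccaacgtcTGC
Gjc1: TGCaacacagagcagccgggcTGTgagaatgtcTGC
The stretch starts at codon 53 in Gjb6, Gjb2, Gjb1 and Gjc1, at codon 54 in Gja1 and Gja4, and at codon 64 in Gjc3. Gjb1 and Gja4 share 31 of the 36 bases and Gjb6 and Gjb2 share 30, while Gja1 and Gjc3 share 18. Of 21504 coding genes searched, 2.09% hold the motif, among them 19 of 20 connexin genes (all but Gje1) and 0 of 3 pannexin genes. Over the whole coding sequence Gjb6 and Gjb2, both assigned to astrocytes, were 66.3% identical, the highest value of any pair of members. Gja1, the third astrocyte member, was 45.0% identical to Gjb6 and 41.3% to Gjb2. Both values lie within the range of Panx1 against the connexins, which was 37.0% to 47.9% in the same alignment.

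Depth lay between 14224519 and 16961160 listed counts a library, and the members had between 10 and 9939 counts in a library. The targeted gene Pdcd1 had 0 counts in both WT libraries and 20 in the KO-labelled library 2, and it was not listed in the KO-labelled library 1, which leaves room for at most 4. The only listed counts were thus in a KO-labelled library. With 0 counts in both WT libraries, Pdcd1 cannot serve to check the labels. Directions below are given for the libraries as labelled. The KO-labelled library 2 carried 2472 counts of the Y-linked Ddx3y and 0 of Xist, and the other 3 libraries carried 0 of Ddx3y and between 6732 and 8564 of Xist. The KO-labelled libraries were thus not repeats of 1 RNA sample, while the spread between the WT libraries may be technical. The 10 astrocyte markers summed to 6919 CPM and 6190 CPM in the KO-labelled libraries 1 and 2, and to 6954 CPM and 6497 CPM in WT 1 and WT 2, led by Slc1a3 and Aqp4, with 0 markers at 0. The microglia markers, led by Csf1r and Cx3cr1, were higher in the KO-labelled libraries for 8 of 8 genes, at summed levels of 3458 CPM and 2897 CPM against 630 CPM and 848 CPM, with none at 0. P2ry12, a purinergic receptor of microglia, was the 1 marker of any list that passed the test (log2 fold change 2.56 ± 0.16 SE, edgeR adjusted p = 0.0288), and without the KO-labelled library 2 no gene of the table passed. The neuron markers, led by Map2 and Dcx, summed to 2213 CPM and 2299 CPM in the KO-labelled libraries and to 2434 CPM and 2758 CPM in WT. Markers of neurons and microglia were thus present beside those of astrocytes in every library.

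To compare levels between genes, CPM were divided by the length of the merged exons of each gene. Gja1 had a mean of 57 CPM per kilobase over the 4 libraries, with a range of 51.5 to 60.2. Panx1 followed at a mean of 6.56 (4.44 to 8.29), then Gjb6 at 3.79 (3.07 to 4.58), Gjc1 at 3.76 (2.82 to 4.98), Gjb1 at 3.75 (1.18 to 5.31), Gja4 at 3.43 (2.25 to 5.23), Gjc3 at 2.71 (0.287 to 4.53) and Gjb2 at 1.5 (0.289 to 4.1) CPM per kilobase. Gja1 stood clear of all others in every library, and each later neighbour in that order had a range overlapping the next. Within each library Panx1 was still above every connexin but Gja1 on this scale. The neighbours after Panx1 changed places between libraries, so their order is not resolved. Gja1 made up 67.4% and 72.5% of the summed connexin level per length in the KO-labelled libraries 1 and 2, and 79.6% and 82.2% in WT 1 and WT 2. The merged exons of Gja1 span 10257 bases, far more than its coding transcript. Per kilobase of a single coding transcript of 3182 bases its mean was 184 CPM and its shares were 83.9%, 87.2%, 90.4% and 91.1% in the same order. On that scale Gjc1 moved to the second place, at a mean of 8.12 CPM per kilobase, and its range still overlapped that of Panx1.

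**Figure D1:**
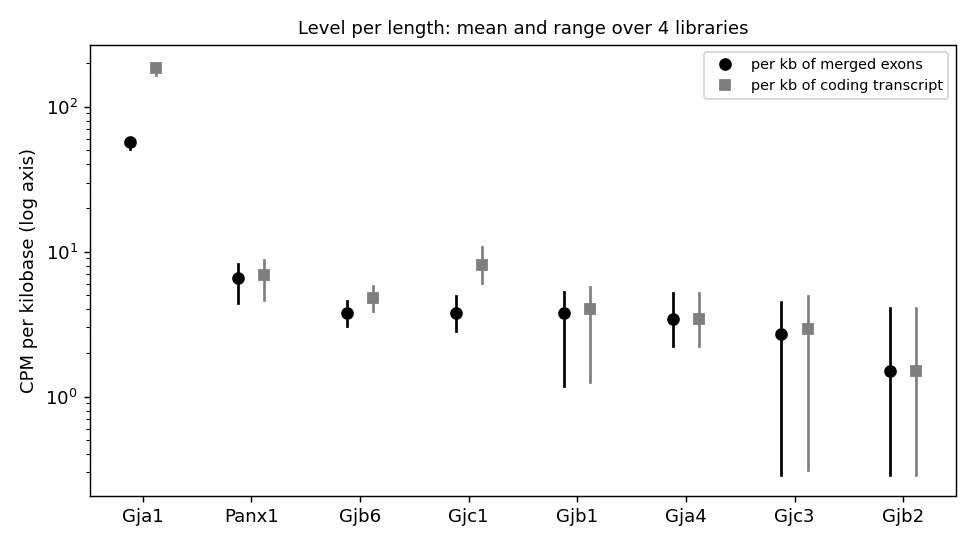
Level of each member in CPM per kilobase on a log axis, as the mean (marker) and the range over the 4 libraries (line), per kilobase of merged exons (circles) and of the coding transcript (squares). Gja1 lies above all others on both scales, and the ranges of Gjc3 and Gjb2 are the widest.

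Gja1 encodes Cx43, the main gap junction protein of astrocytes. Its level was 603 CPM and 528 CPM in the KO-labelled libraries 1 and 2 and 589 CPM and 617 CPM in WT 1 and WT 2. The groups overlapped, the lowest value belonged to the KO-labelled library 2, and the highest library was 1.17-fold above the lowest. The log2 fold change was -0.09 ± 0.11 (SE), and it did not pass (edgeR, adjusted p = 0.924). Relative to 1000 CPM of summed astrocyte markers, Gja1 stood at 87.2 and 85.3 in the KO-labelled libraries and at 84.7 and 95 in WT. Its level over the 4 libraries lay closest to those of Aldoc, Slc1a3 and Slco1c1, with a root mean square difference of centred log2 CPM of 0.03, 0.05 and 0.08 among 51 markers compared. Aldoc encodes a glycolytic enzyme and Slc1a3 a glutamate transporter, both abundant in astrocytes.

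Gjb6 encodes Cx30, which astrocytes add as they mature. It had 11.6 CPM and 8.22 CPM in the KO-labelled libraries 1 and 2 and 8.47 CPM and 12.2 CPM in WT 1 and WT 2. Each group thus held 1 high and 1 low library, and the groups overlapped (log2 fold change -0.06 ± 0.41 SE, adjusted p = 0.993). Its counts were 1.93% and 1.56% of those of Gja1 in the KO-labelled libraries and 1.44% and 1.98% in WT. The direction was not stable, since the log2 fold change was 0.17 without the KO-labelled library 2 and 0.23 without WT 2. Aldoc was again its nearest marker, at a difference of 0.20, followed by Slco1c1 (0.23) and Acsbg1 (0.24).

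Gjb2 encodes Cx26, which is found in some astrocytes and is also strong in the meninges that cover the cortex. It had 9.87 CPM in the KO-labelled library 1, 1.66 CPM in that labelled KO 2, 2.19 CPM in WT 1 and 0.695 CPM in WT 2. The KO-labelled library 1 stood 5.96-fold above the other of its group, while that labelled KO 2 lay between both WT libraries. The value of WT 2 rests on 10 counts, with an exact 95% binomial interval of 0.333 to 1.28 CPM that covers counting error only. The log2 fold change of 1.99 ± 1.09 (SE) did not pass (adjusted p = 0.731), and it was 0.20 without the KO-labelled library 1 and 3.04 without WT 1. Markers of meningeal fibroblasts were also highest in the KO-labelled library 1, at a summed level of 216 CPM against 47.7 CPM in that labelled KO 2 and 39.3 CPM and 42.3 CPM in WT, with 6 of 6 genes listed and none at 0. Among them Col1a1 and Col1a2, which encode the chains of type I collagen, had 71.6 CPM and 69.9 CPM in the KO-labelled library 1 and at most 27.1 CPM elsewhere. Relative to 1000 CPM of summed fibroblast markers Gjb2 ran from 16.4 to 55.8 over the libraries, a 3.39-fold range, and relative to astrocyte markers from 0.107 to 1.43, a 13.3-fold range. The part of such cells in the value of Gjb2 was not tested. Its nearest markers over the 4 libraries were the endothelial genes Kdr (0.51) and Tie1 (0.55) and the fibroblast gene Col1a2 (0.56), all at a far wider difference than those of Gja1.

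**Figure D2:**
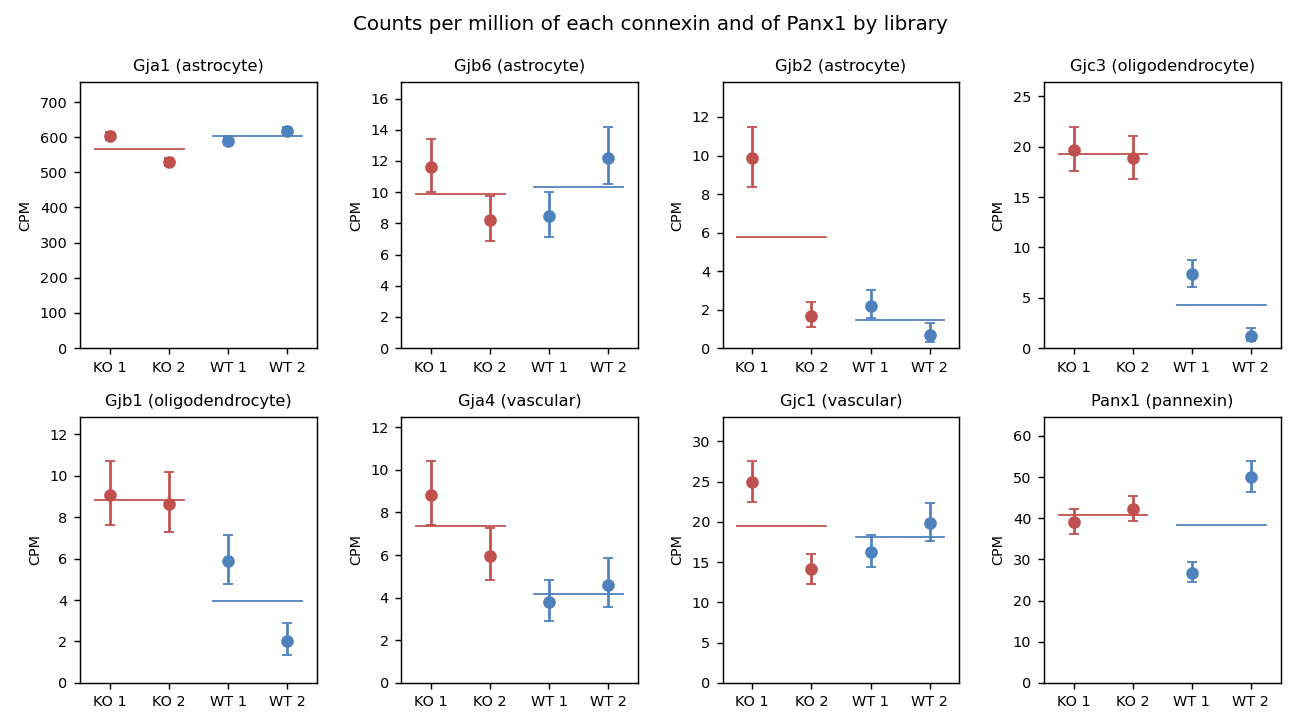
CPM of each member in the 4 libraries, with exact 95% binomial intervals for counting error and a horizontal line at the mean of each group of 2. Gjc3, Gjb1 and Gja4 are the members in which both KO-labelled libraries lie above both WT libraries, as they do in 21.2% of tested genes. Gjb2 is high in the KO-labelled library 1 alone.

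Of the classes, the oligodendrocyte connexins had the highest median log2 fold change (1.66). Gjc3 encodes Cx29, a connexin of oligodendrocytes and Schwann cells. It had 316 and 308 counts in the KO-labelled libraries 1 and 2, or 19.7 CPM and 18.9 CPM, and 124 and 18 counts in WT 1 and WT 2, or 7.35 CPM and 1.25 CPM. Each value of the KO-labelled libraries exceeded each WT value, and they were close to each other while the WT libraries differed 5.87-fold. The means of 19.3 ± 0.608 CPM and 4.3 ± 4.31 CPM in WT (SD, n = 2 libraries a group) stood 4.49-fold apart. The log2 fold change of 2.16 ± 0.78 (SE) was short of the threshold (adjusted p = 0.536, unadjusted p = 0.0346). It was 3.94 without WT 1 (adjusted p = 0.0775) and 1.40 without WT 2 (adjusted p = 0.272), so its size depended on which WT library was kept, and neither fit passed.

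Gjb1 encodes Cx32, a connexin of myelinating cells in which mutations cause X-linked Charcot-Marie-Tooth neuropathy. It had 9.06 CPM and 8.65 CPM in the KO-labelled libraries 1 and 2 and 5.87 CPM and 2.02 CPM in WT 1 and WT 2. The groups did not overlap, and WT 2 was again the lowest library. The log2 fold change was 1.16 ± 0.63 (SE, adjusted p = 0.729), and it was 2.13 without WT 1 and 0.60 without WT 2. The gene is X-linked, and its levels in the KO-labelled libraries, which differ in Xist and Ddx3y, were within 1.05-fold of each other. Gjc3 counts were 218% of Gjb1 counts in both KO-labelled libraries, 125% in WT 1 and 62.1% in WT 2, so Gjc3 differed more than Gjb1 in proportion.

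Summed markers of the oligodendrocyte lineage were likewise lowest in WT 2, but over a smaller range. The mature oligodendrocyte list summed to 759 CPM and 967 CPM in the KO-labelled libraries 1 and 2 and to 620 CPM and 415 CPM in WT 1 and WT 2, with 9 of 10 genes listed, 8 tested, 0 called, and Mobp at 0 in some libraries. Its median log2 fold change was 0.84, against 0.00 over all tested genes. Mbp, the myelin basic protein gene, stood at 372 CPM and 456 CPM against 271 CPM and 189 CPM (log2 fold change 0.85 ± 0.21 SE, adjusted p = 0.367). Mag, a myelin adhesion protein gene named here after its values were seen, shared the low value of WT 2, at 0.626 CPM against 14.6 CPM in WT 1. Ermn, a cytoskeletal gene of myelinating cells chosen after its values were seen, went the other way, at 1.81 CPM and 2.21 CPM in the KO-labelled libraries and 7.47 CPM and 8.48 CPM in WT. The precursor list, led by Olig1 and Pdgfra, had a median of 0.28 and summed to 2438 CPM and 2447 CPM in the KO-labelled libraries and to 2322 CPM and 1822 CPM in WT, with none at 0.

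Relative to 1000 CPM of both lineage lists together, Gjc3 and Gjb1 summed to 9.01 and 8.06 in the KO-labelled libraries 1 and 2, 4.49 in WT 1 and 1.46 in WT 2. The connexin sum spanned an 8.82-fold range, the marker sum, led by Olig1, 1.53-fold and the mature list alone 2.33-fold, while the single marker Mag ran from 0.626 CPM to 19.1 CPM. The mean log2 difference of the ratio was 1.73, with an SD of at most 1.15 within a group. It was 0.92 without WT 2 and 2.55 without WT 1. Per 1000 CPM of mature markers alone, Gjc3 stood at 26 and 19.5 in the KO-labelled libraries and at 11.9 and 3.01 in WT, with no overlap. Gjb1 stood at 11.9 and 8.94 against 9.47 and 4.85, so for Gjb1 the groups overlapped after the division. As these are bulk libraries, fewer cells of a type and less RNA per cell cannot be told apart. The nearest markers of Gjb1 included the myelin gene Cldn11 (0.31) and the precursor gene Cspg4 (0.37). Those of Gjc3 were the endothelial genes Esam (0.45), Cldn5 (0.49) and Tie1 (0.63), which shared its low value in WT 2. With 4 libraries such likeness says little beyond the order of the libraries.

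**Figure D3:**
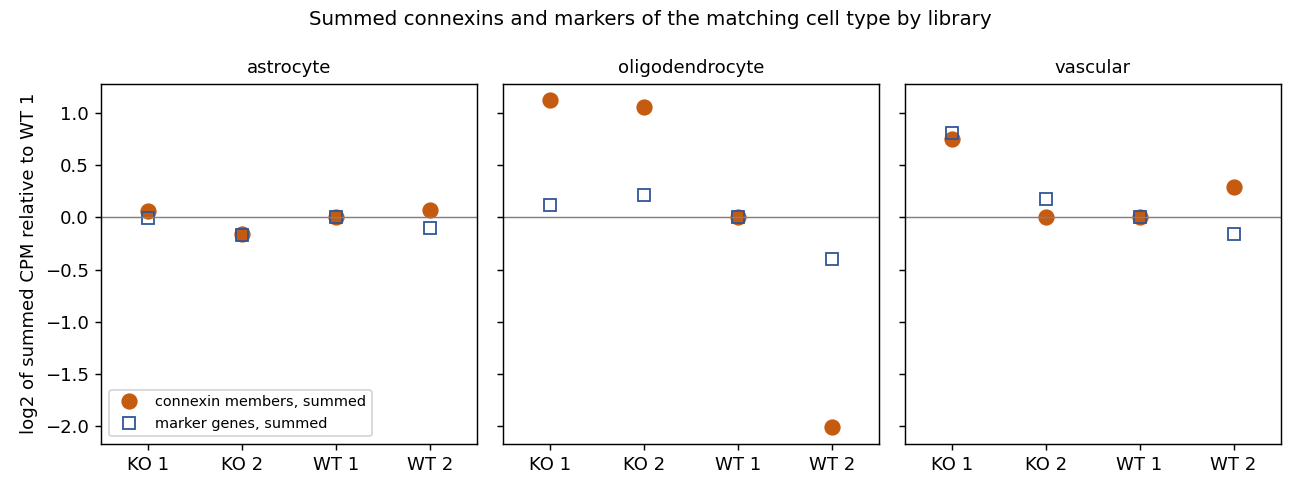
Summed CPM of the astrocyte (Gja1, Gjb6, Gjb2), oligodendrocyte (Gjc3, Gjb1) and vascular (Gja4, Gjc1) connexins (filled circles) and of the markers of the matching cell types (open squares) in each library, as log2 relative to WT 1. The oligodendrocyte connexins span far more than the sum of their markers, while the astrocyte points nearly coincide. The astrocyte sum is almost all Gja1 (603 of 625 CPM in the KO-labelled library 1). It therefore hides Gjb6 and Gjb2, and Gjb2 alone spanned 14.2-fold.

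The promoter windows of both oligodendrocyte connexins are shown because these genes were high and low in the same libraries. They run from 250 bases before to 50 bases after an annotated start, and 7 of the 8 members matched in the RefSeq table of GRCm38.p6. The windows were searched on both strands for ACAAAG and ACAATG, motifs of the kind bound by SOX10, a transcription factor of the oligodendrocyte lineage, and matches are in capitals. The Gjb1 window at chrX:101383482-101383781 (plus strand), 1 of 4 annotated starts of the gene, held 2 matches in opposite orientation, the most of the 4. The other windows of the gene held 1, 0 and 0.
Gjb1: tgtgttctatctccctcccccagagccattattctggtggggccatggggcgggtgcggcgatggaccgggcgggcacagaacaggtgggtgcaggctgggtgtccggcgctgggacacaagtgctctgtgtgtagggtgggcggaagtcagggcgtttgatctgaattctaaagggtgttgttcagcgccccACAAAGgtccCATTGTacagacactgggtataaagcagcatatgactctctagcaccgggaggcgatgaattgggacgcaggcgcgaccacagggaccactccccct
The Gjc3 window at chr5:137963049-137963348, read on the minus strand, held 0 matches.
Gjc3: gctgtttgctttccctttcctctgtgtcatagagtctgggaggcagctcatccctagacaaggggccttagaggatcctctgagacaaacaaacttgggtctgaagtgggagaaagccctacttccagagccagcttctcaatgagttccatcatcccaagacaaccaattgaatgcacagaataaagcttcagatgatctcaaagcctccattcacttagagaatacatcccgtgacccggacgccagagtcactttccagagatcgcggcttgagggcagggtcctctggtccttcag
Of 32851 windows of this length, 28.6% hold at least 1 match, a share for single windows and not for the best of several, so the match describes the sequence and does not show a site in use. Which start of Gjb1 was used cannot be read from gene counts. Sox10 itself had 146 CPM and 141 CPM in the KO-labelled libraries and 86.8 CPM and 94.3 CPM in WT (log2 fold change 0.66 ± 0.14 SE), and it did not pass (adjusted p = 0.312).

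Of the vascular members, Gja4 encodes Cx37, a connexin of arterial endothelium and of mural cells. It had 8.81 CPM and 5.95 CPM in the KO-labelled libraries 1 and 2 and 3.79 CPM and 4.59 CPM in WT 1 and WT 2. The groups did not overlap, the mean was 1.76-fold higher in the KO-labelled libraries, and the log2 fold change of 0.82 ± 0.51 (SE) did not pass (adjusted p = 0.777). It was 0.51 without the KO-labelled library 1, which was the highest. Its nearest marker was Rgs5, a signalling regulator of pericytes, at a difference of 0.06, followed by the oligodendrocyte lineage gene Sox10 (0.20) and the mural gene Kcnj8 (0.23). Rgs5 had 507 CPM and 326 CPM in the KO-labelled libraries and 235 CPM and 256 CPM in WT. Gja4 stood at 8.96, 8.84, 6.7 and 9.95 per 1000 CPM of endothelial markers in the KO-labelled libraries 1 and 2, WT 1 and WT 2, and 10.9, 12.3, 8.27 and 10 per 1000 CPM of mural cell markers. Each of these ratios spanned 1.49-fold, against 2.32-fold for Gja4 itself. The endothelial sum is led by Slco1c1, which varied little (430, 393, 393 and 395 CPM in the same order). Cldn5 of the same list ran from 24.4 CPM in WT 2 to 273 CPM in the KO-labelled library 1. The span of the endothelial ratio thus depends on Slco1c1, which was also among the nearest markers of Gja1 (0.08). The ratio of Gja4 without Slco1c1 was not computed. The narrower span therefore does not show that Gja4 followed the other endothelial genes.

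Gjc1 encodes Cx45, a connexin of smooth muscle, pericytes and some neurons. It had 24.9 CPM and 14.1 CPM in the KO-labelled libraries 1 and 2 and 16.2 CPM and 19.9 CPM in WT 1 and WT 2. The groups overlapped, and the KO-labelled libraries held both the highest and the lowest value (log2 fold change 0.11 ± 0.36 SE, adjusted p = 0.981). The direction turned to -0.35 without the KO-labelled library 1 and to -0.03 without WT 1. Its nearest marker was Pdgfrb, the receptor that recruits pericytes to vessels, at a difference of 0.22, followed by Gfap and Aldoc at 0.23. Gja4 counts were 35.3% and 42.2% of Gjc1 counts in the KO-labelled libraries and 23.4% and 23.1% in WT.

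The vascular markers were themselves unevenly spread. The endothelial list summed to 983 CPM and 673 CPM in the KO-labelled libraries 1 and 2 and to 566 CPM and 461 CPM in WT 1 and WT 2, with 10 of 10 genes listed, a median log2 fold change of 1.65, 0 called and none at 0. Its most abundant member, the thyroid hormone transporter Slco1c1, which astrocytes also express, had a log2 fold change of 0.06, and the tight junction gene Cldn5 had 273 CPM and 136 CPM against 78.3 CPM and 24.4 CPM. The mural cell list, led by Rgs5 and Notch3, summed to 812 CPM and 484 CPM in the KO-labelled libraries and to 459 CPM in each WT library, with a median of 0.42 and Tagln at 0 in the KO-labelled library 1. Of 3 arterial markers listed, Efnb2 had 12.6 CPM and 14.3 CPM against 18.4 CPM and 17.3 CPM in WT, Sema3g was at most 2.16 CPM and at 0 in WT 1, and Bmx was at 0 in 2 libraries. Relative to 1000 CPM of endothelial and mural markers, Gja4 and Gjc1 summed to 18.8 and 17.3 in the KO-labelled libraries and to 19.5 and 26.6 in WT, a mean log2 difference of -0.34 with an SD of at most 0.32 within a group. This was -0.11 without WT 2 and -0.59 with Slco1c1 left out of the markers. The part of a different share of vascular cells was not tested.

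Panx1 encodes a channel that releases ATP and is found in neurons, glia and immune cells. It had 39.1 CPM and 42.3 CPM in the KO-labelled libraries 1 and 2, 26.8 CPM in WT 1 and 50 CPM in WT 2. The KO-labelled libraries lay between the WT libraries, which differed 1.87-fold, and the log2 fold change of 0.09 ± 0.33 (SE) did not pass (adjusted p = 0.988). It was 0.61 without WT 2 and -0.30 without WT 1. Relative to 1000 CPM of microglia markers Panx1 ran from 11.3 to 59, a 5.21-fold range, and relative to neuron markers from 11 to 18.4. Its nearest markers were the lineage gene Olig2 (0.17) and the neuronal genes Rbfox3 (0.19) and Snap25 (0.24).

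**Figure D4:**
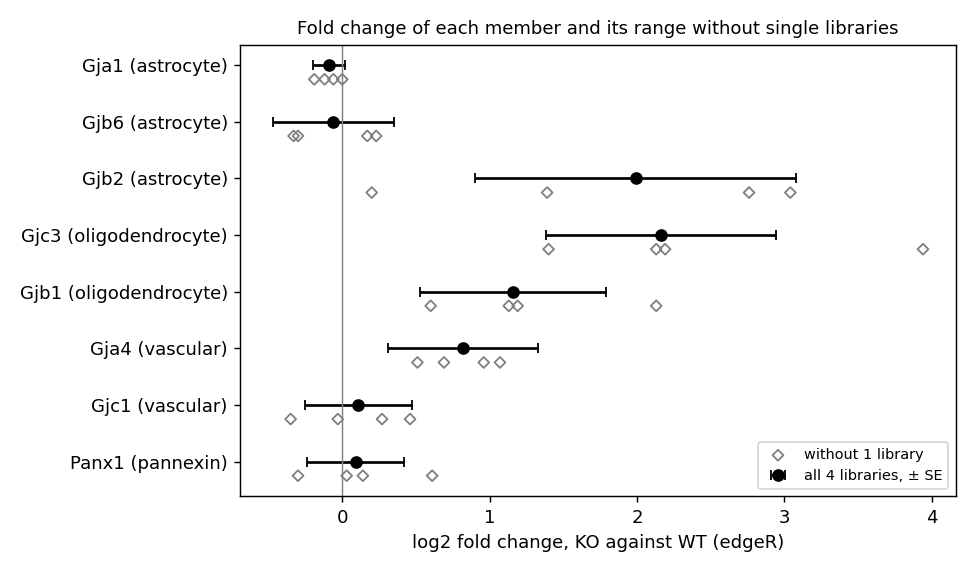
log2 fold change of each member between the KO-labelled libraries and WT by edgeR, with its SE (circles), and the same value when each library in turn was left out (diamonds). Gjb6, Gjc1 and Panx1 change direction when 1 library is left out, while Gjc3, Gjb1, Gjb2 and Gja4 stay above 0 at sizes that vary with the library left out.

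Across the set, 0 of 8 members passed at an adjusted p under 0.05, where 0.017% of all tested genes did in either direction, and 1 (Gjc3) had an unadjusted p under 0.05. DESeq2 and limma-voom also called 0 of the 8, where they called 2.14% and 0.158% of all genes. The groups did not overlap in 3 of 8 members, against 39.6% of tested genes. All 3 were higher in the KO-labelled libraries, as were 21.2% of tested genes, and 0 were lower, where 18.4% of tested genes were. The median log2 fold change was 0.46 over the members and 0.00 over all tested genes. A value of at least 1 was found for 3 members (Gjb2, Gjc3 and Gjb1) and for 9.93% of all tested genes, and 15.7% of tested genes reached that size in either direction. By class the medians were -0.06 over the 3 astrocyte members, 1.66 over the 2 oligodendrocyte members and 0.46 over the 2 vascular members, and the difference between classes was not tested.

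Of 15 further connexins and pannexins 7 were listed, 3 were tested, and 0 passed, with a median log2 fold change of -0.40. Gjd2, which encodes Cx36, the main connexin of electrical synapses between neurons, had 9.69 CPM and 6.68 CPM in the KO-labelled libraries and 7.11 CPM and 3.41 CPM in WT (log2 fold change 0.64 ± 0.56 SE). Gja5, which encodes the arterial connexin Cx40, had 0.687 CPM and 1.1 CPM in the KO-labelled libraries and 1.36 CPM and 2.78 CPM in WT, with no overlap between the groups (log2 fold change -1.20 ± 1.04 SE, adjusted p = 0.867). It thus lay opposite in direction to Gja4, a connexin of both arterial endothelium and mural cells. Gja5 had counts of 11 to 40 per library. Its value is therefore uncertain. Panx2, a neuronal pannexin, had 1.31 CPM and 1.96 CPM against 3.5 CPM and 0.834 CPM.

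Genes for proteins that anchor, phosphorylate or degrade connexins had a median log2 fold change near 0. Of the 15 partners and regulators all were listed, 14 were tested and 0 passed. Their median was -0.07 and their range -0.41 to 0.25, where the median absolute value of all tested genes was 0.30. Of the 14, 5 were lower in both KO-labelled libraries and 2 higher, as were 18.4% and 21.2% of all tested genes. The scaffold Tjp1, which binds the tail of Cx43 at the edge of gap junctions, had 0.04 ± 0.27 (SE), and the actin-binding drebrin gene Dbn1 had -0.13. The ubiquitin ligase gene Nedd4, which marks Cx43 for uptake, had -0.11, the proteasome adaptor Ubqln4 had -0.41 and the trafficking factor Cnst had 0.10. Cdh2, Ctnnb1 and Cttn, which belong to the adhesion and actin machinery beside gap junctions, had -0.30, -0.03 and -0.18, and Cav1 of caveolae had 0.07. The kinase genes Src, Csnk1d and Prkca had -0.29, 0.14 and 0.25, and the adaptor Ywhaq had -0.01. Nov, a matrix protein gene, had 15 and 9 counts in the KO-labelled libraries and 0 in both WT libraries, and was not tested.

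Of the 8 genes that act on or with ATP released through pannexin channels, 8 were tested, 0 passed, and the median was 0.41. Entpd1, which encodes the ectonucleotidase CD39 that breaks down ATP and is abundant on microglia, had 78.1 CPM and 75.3 CPM in the KO-labelled libraries against 31.5 CPM and 41.9 CPM in WT (log2 fold change 1.06 ± 0.22 SE, adjusted p = 0.277). Nt5e, which encodes the next enzyme of that pathway, had 0.89 ± 0.60. The ATP-gated channel genes P2rx4 and P2rx7 had 0.50 ± 0.28 and 0.32 ± 0.20, and the receptor genes P2ry1 and P2ry2 had -0.74 ± 0.97 and 0.06 ± 0.63. These values stand beside the microglia markers, whose median log2 fold change was 1.89, and the part of microglia in them was not tested.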

How the data were processed

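The submitters' processing notes list HTSeq 0.6.0, TopHat2 2.0.12 and Bowtie2 2.2.3 without their roles. They give mm9 as the build, yet 90.6% of the positions of the 23475 genes match GENCODE M21 on GRCm38 exactly, and that annotation was used. No source used here says if strand entered the counting. The authors deposited 4 tables, each with raw counts per gene for a KO and a WT library, per the file headers. The 8 columns of normalized values were not used. The tables were joined by gene, 0 counts disagreed between them, and a count missing from all tables (at most 4) was set to 0.

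Groups were compared with edgeR 4.0.16 (R 4.3.3, TMM, quasi-likelihood test) on the 17696 genes kept by filterByExpr (minimum count 10), with Benjamini-Hochberg adjustment at 0.05 and 2 residual degrees of freedom. SEs were derived by dividing each fold change by the root of F. CPM were taken over effective sizes of 14383367 to 16875261 counts, and intervals are exact binomial ones for counting error. Coding identity came from global alignment and copies from blastn 2.17.0. The fit was tested on simulated counts with less spread than these data, whose common dispersion was 0.204. That run checks the code and does not show how the fit performs on these libraries. Alternatives were DESeq2 1.42.0, limma-voom (limma 3.58.1), other scalings and filters, leaving out single libraries, and a replicate block. Members and gene lists were chosen with earlier results of these data known. Some genes that the rule for named genes picks are not reported here. The text names the 8 members, pathway genes with at least 10 counts in any library, the 2 most abundant markers of each list and any that passed, and for each member the 3 markers (mean of at least 10 CPM) with the nearest centred log2 CPM (0.1 CPM added).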

Additional observations from a re-analysis of the deposited data

How the results depend on the processing

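No member passed the threshold under any alternative run, and the lowest adjusted p of a member was 0.0775, for Gjc3 without WT replicate 1. Of 103 fold changes of members under alternatives, 98 kept the sign of the unrounded value, among them Gja1 at 0.00 without KO replicate 2, and the 5 that reversed did so when a library was left out. The log2 fold change of Gjb6 then ran from -0.33 to 0.23, that of Gjc1 from -0.35 to 0.46 and that of Panx1 from -0.30 to 0.61, and the cause was not tested. With a mean CPM of at least 5, Gjb2 was not tested. Over all genes, 3 were called higher and 0 lower (1040 and 427 at an unadjusted p under 0.05). DESeq2 called 315 and 63, limma-voom 25 and 3, edgeR with no low-count filter 52 and 4, and edgeR under that same CPM minimum called 63 and 5. Without single libraries the counts ran from 0 to 41 higher and from 0 to 1 lower, with 0 in both directions without KO replicate 2 (edgeR, 613 and 408 at an unadjusted p under 0.05). The labels number the libraries 1 and 2 in both groups, but same-numbered libraries did not deviate together (correlation 0.0321), so the numbers do not show a pairing. With the replicate block 4 genes were called higher and 0 lower, 0 members were called, and Gjc3 had a log2 fold change of 2.58. The KO minus WT log2 ratios of members to markers were -0.05, 1.73 and -0.34 for the astrocyte, oligodendrocyte and vascular classes. With the most abundant marker left out they were -0.07, 1.57 and -0.59. Without single libraries they ran from -0.13 to 0.04, from 0.92 to 2.55 and from -0.56 to -0.11. The astrocyte ratio is largely that of Gja1, which made up most of its class sum. Gjb2 and Gjc3, at 10 and 18 counts in WT replicate 2, are the members that depth limits most.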
